A study of Mus musculus with 11 samples.

Results

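Of the 54752 gene identifiers in the count files, 27 belong to genes for inhibitory transmitter receptors and chloride transport. They were taken as a named list of genes by function and matched by symbol, with no measured value in the rule. They comprise 16 subunits of the ionotropic GABA-A receptor family (5 alpha, 2 beta, 2 gamma, 4 of the delta, epsilon, pi and theta classes, and 3 rho), the 2 subunits of the metabotropic GABA-B receptor, 4 glycine receptor alpha subunits, the glycine receptor beta subunit Glrb, the scaffold protein gephyrin (Gphn) and 3 chloride transporters. The list does not hold every GABA-A subunit gene, and subunits outside it were not analysed here.

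Expression was measured in 11 RNA-seq libraries of thalamic neurons from mice at postnatal day 0 (P0). There were 4 libraries from the dorsolateral geniculate nucleus (dLG), the visual relay, 4 from the ventral posteromedial nucleus (VPM), the somatosensory relay of the face, and 3 from the ventral division of the medial geniculate nucleus (MGv), the auditory relay. All animals were of the ICR/CD-1 strain and carried Gbx2CreER-IRES-EGFP/+::R26lsl-tdTomato/+. In these mice tamoxifen-dependent Cre, expressed from the Gbx2 locus, turns on a red fluorescent protein, by which cells were sorted, so all 3 groups share the reporter and the driver on 1 Gbx2 allele, and were sorted for cells with a history of Gbx2 expression. Each library was made from the tissue of 4 pooled brains, and p-values measure the spread between such pools. The comparisons ask how newborn neurons of the 3 sensory relays differ in these genes.

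GABA-A and glycine receptors are chloride channels opened by their transmitter, and whether they excite or inhibit a cell depends on its chloride gradient. In GABA-A receptors the alpha, beta and gamma subunits set the kinetics, pharmacology and location of the channel. In glycine receptors the alpha subunits bind glycine, and the beta subunit ties the channel to gephyrin at the synapse. GABA-B receptors act through G proteins and need both of their subunits. In immature neurons the importer NKCC1, encoded by Slc12a2, keeps intracellular chloride high, and the exporter KCC2, encoded by Slc12a5, lowers it as the neurons mature. Thalamic relay cells receive GABA mainly from the reticular nucleus and, in some nuclei, also from local interneurons.

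At P0, 20 of the 27 genes passed the count filter and 7 did not, and their levels covered a wide range. Deposited totals, in units of 1000000 counts, ran from 15.9 to 22.7 in dLG, from 18.9 to 23.6 in VPM and from 10.2 to 13.2 in MGv. A gene at 3 counts had between 0.129 and 0.292 CPM (counts per 1000000 of the scaled library total), depending on the library, and MGv was therefore measured least deeply. The most abundant transcript per kilobase of exon was Glra2, with a mean of 90.0 CPM per kilobase over the 11 libraries. It was followed by Gphn at 36.4, Gabra5 at 31.2, Gabra2 at 31.1, Gabbr1 at 22, Slc12a5 at 17.5, Glrb at 15.2, Gabra3 at 11.5 and Gabbr2 at 11.3 CPM per kilobase. Gabrg1 (5.36), Gabra4 (5.28), Gabrb1 (5.0) and Gabrg3 (1.89 CPM per kilobase) formed a middle range. Gabrb2, Slc12a2, Gabrq, Gabrr1, Glra1, Glra3 and Slc12a7 had means between 0.820 and 0.0807 CPM per kilobase.

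**Figure D1:**
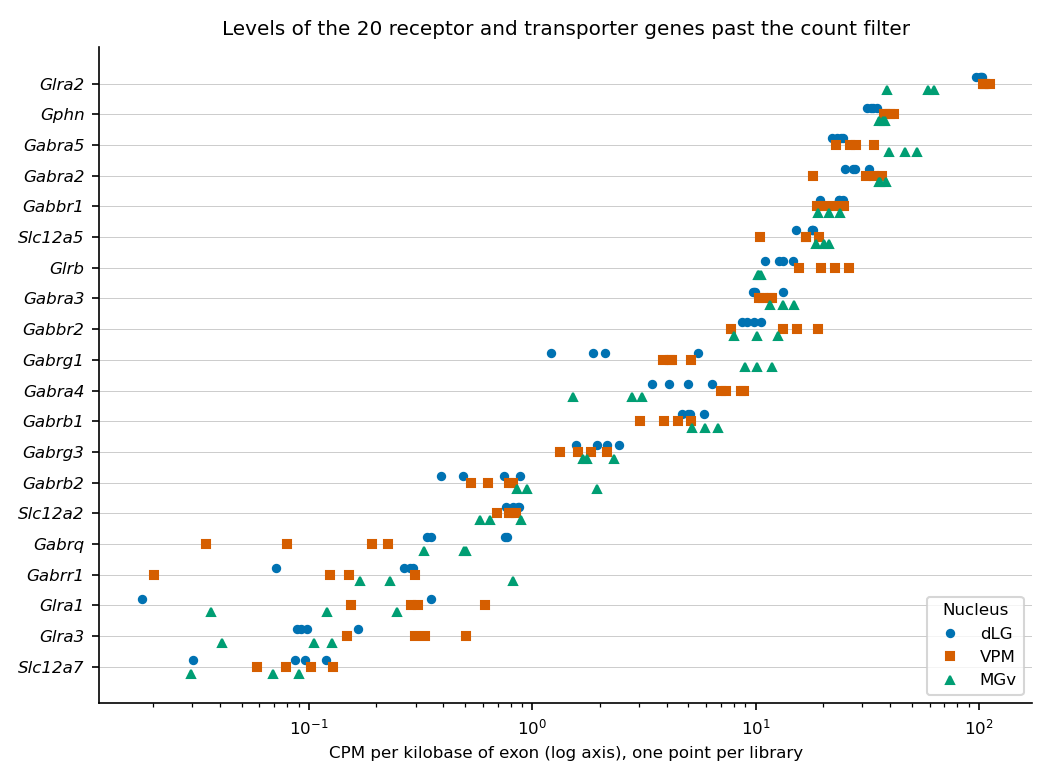
Level of each of the 20 genes that passed the count filter, in CPM per kilobase of exon on a log axis, with 1 point per library and colours for dLG (4 libraries), VPM (4) and MGv (3). Glra2 lies highest, and the MGv points lie apart from the dLG and VPM points for Glra2, Gabra5 and Gabrg1; the 2 dLG libraries with no Glra1 count are not drawn.

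The 7 genes under the filter were at or near the limit that the depth allows. The rho subunit gene Gabrr3 and the glycine receptor subunit gene Glra4 had 0 counts in all 11 libraries, which allows a level of up to 0.129 to 0.292 CPM. Gabra6, a subunit known from cerebellar granule cells, had 1 count in all. Gabrp had 6 counts, all in VPM replicate 4, and Gabre had 17, Gabrr2 27 and Gabrd 40 counts over the libraries. Gabrd encodes the delta subunit, which in adult relay neurons joins the alpha4 subunit in receptors outside the synapse. Its level was 0, 0.0430, 0 and 0 CPM in dLG, 0.695, 0.389, 0 and 0.285 CPM in VPM, and 0.150, 0.614 and 0 CPM in MGv. Such limits cover counting error only.

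Several libraries stood apart from the others of their nucleus. 1 library of each nucleus (replicate 2 of dLG, 3 of VPM and 1 of MGv) held little of the chaperone gene Hspa8, at 3.05 to 5.56 CPM, where the other 8 libraries held 159 to 581 CPM. Blood genes (4, of which 2 passed the filter) summed to 512 CPM in dLG replicate 3 and to at most 11.7 CPM elsewhere. The labels call the cells neurons, and 9 pan-neuronal genes summed to between 10054 and 13375 CPM and 6 relay neuron genes to between 1939 and 3465 CPM. The 9 markers of GABAergic neurons summed to at most 6.41 CPM, and their defining vesicular transporter gene Slc32a1 had at most 0.0463 CPM in any library.

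Differences between nuclei were tested with edgeR's quasi-likelihood test over 15907 genes, and a gene was called at a Benjamini-Hochberg adjusted p under 0.1, the threshold of the study. Of the 20 members tested, 9 were called in at least 1 comparison, 7 in at least 2 and Gabra4 in all 3. The shares of all genes called in at least 1, at least 2 or all 3 comparisons were not computed. These counts therefore cannot be read as more or fewer than over all genes. Between dLG and VPM, 4 of 20 members were called, where 10.7% of all genes tested were called. Gabrq was higher in dLG, the direction of 4.97% of all genes, and Gabra4, Glra3 and Glrb were higher in VPM, the direction of 5.74%. Between dLG and MGv, 5 members were called (against 16.1% of all genes). Gabra4 and Glra2 were higher in dLG (8.61% of all genes), and Gabra5, Gabrb2 and Gabrg1 were higher in MGv (7.49%). Between VPM and MGv, 8 members were called (against 19.0% of all genes). Gabra4, Glra2, Glra3 and Glrb were higher in VPM (10.4% of all genes), and Gabra5, Gabrb1, Gabrg1 and Gabrq were higher in MGv (8.56%). The comparisons share libraries in pairs, so their counts are not independent of each other.

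The median absolute log2 difference of the 20 members between VPM and MGv was 0.65, against 0.36 over all genes tested. For dLG against VPM it was 0.24, against 0.27 over all genes, and for dLG against MGv it was 0.32 in both. The signed medians were -0.12, -0.13 and -0.066 for dLG minus VPM, dLG minus MGv and VPM minus MGv, against 0.0048, 0.015 and 0.022 over all genes. Without the 3 libraries low in Hspa8, 21 members passed the filter. Of these, 8 were then called for the pair dLG and VPM (16.1% of all genes), 5 for dLG and MGv (19.8%) and 8 for VPM and MGv (19.0%). The members gained between dLG and VPM were Gabra2, Gabrg1, Gabbr2 and Gabrd, all lower in dLG. Also gained were Gabra2 and Gabrb1 (lower in dLG than in MGv) and Gabbr2 (higher in VPM than in MGv). Those lost were Gabra4 and Gabrb2 between dLG and MGv and Gabrq between VPM and MGv. Gabrd, the member added here, had no count in the remaining dLG libraries and passed the filter only through VPM and MGv. Its call is therefore no support for a difference, though it is counted in the 8. In such bulk libraries, fewer cells expressing a gene and less RNA of it per cell cannot be told apart.

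**Figure D2:**
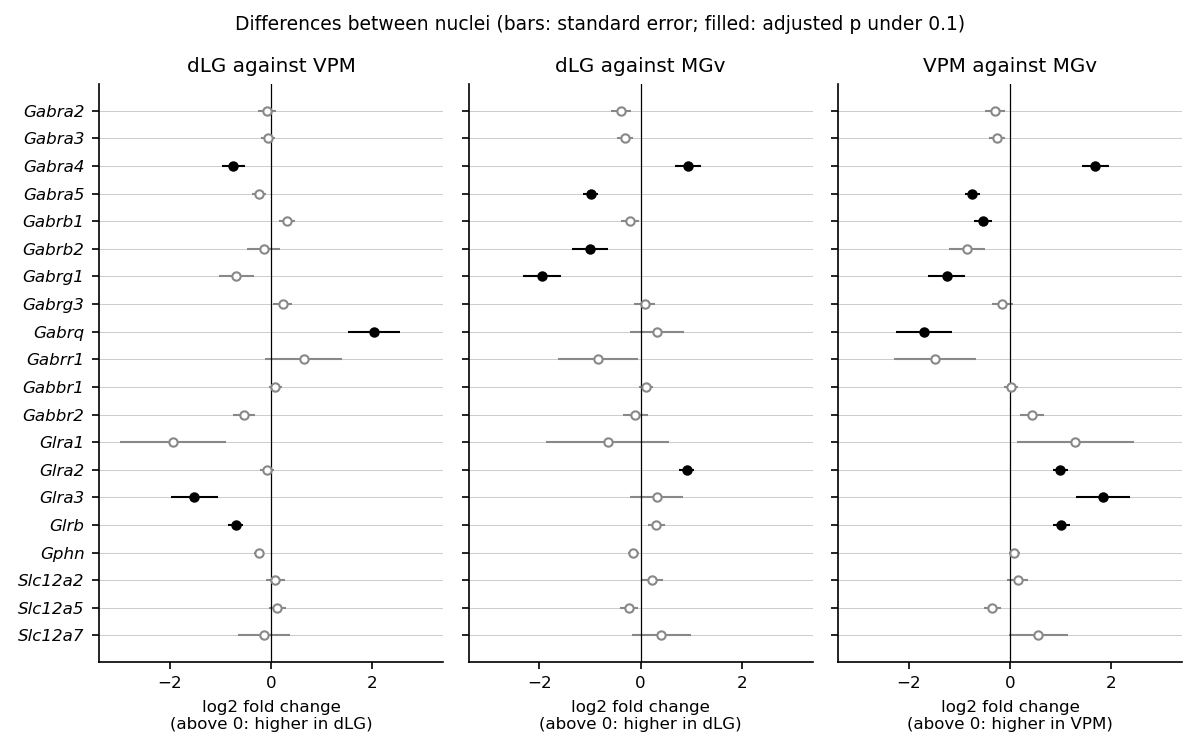
Log2 fold change of each of the 20 genes between dLG and VPM, dLG and MGv, and VPM and MGv, with standard errors as bars and filled points where the adjusted p was under 0.1. Filled points number 4, 5 and 8, and Gabra4 is filled in all 3 panels.

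Members with an adjusted p under 0.01 in any comparison were Gabra4, Gabra5, Gabrg1, Glra2 and Glrb, and the 150 bases before the annotated starts of 4 of them are shown because these genes moved in 2 opposite patterns. The sequences are from RefSeq (GRCm38.p6), 5′ to 3′ on the gene's strand, with capitals at matches to a CCAAT box (CCAAT), a GC box (GGGCGG) or a TATA box (TATAAA), searched on both strands. Gabra5 and Gabrg1 were higher in MGv, and Glra2 and Glrb were lower there than in VPM.
Gabra5, chr7:57510060-57510209, minus strand: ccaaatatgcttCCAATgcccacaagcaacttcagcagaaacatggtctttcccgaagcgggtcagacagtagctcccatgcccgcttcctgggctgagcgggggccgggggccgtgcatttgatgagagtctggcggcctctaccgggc
Gabrg1, chr5:70842618-70842767, minus strand: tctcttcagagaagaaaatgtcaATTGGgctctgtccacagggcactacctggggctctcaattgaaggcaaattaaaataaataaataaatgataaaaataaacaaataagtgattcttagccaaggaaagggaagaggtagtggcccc
Glra2, chrX:165327394-165327543, minus strand: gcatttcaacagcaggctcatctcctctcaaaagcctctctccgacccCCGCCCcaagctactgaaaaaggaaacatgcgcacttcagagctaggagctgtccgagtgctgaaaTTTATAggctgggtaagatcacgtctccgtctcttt
Glrb, chr3:80913661-80913810, minus strand: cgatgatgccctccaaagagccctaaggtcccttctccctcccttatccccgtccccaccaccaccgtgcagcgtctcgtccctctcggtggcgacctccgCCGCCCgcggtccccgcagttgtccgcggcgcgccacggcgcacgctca

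The 2 windows of genes higher in MGv both held a CCAAT match, and those of Glra2 and Glrb both held a GC box match. The window of Gabra4, also lower in MGv, held 1 CCAAT match and 1 GC box match. The matches therefore did not divide the examined genes by direction. Among all 32851 windows of this length, 24.5% held a CCAAT match, 28.6% a GC box match and 7.57% a TATA match. The windows differed most in base composition. Glrb's was 70.7% G and C with 19 CpG dinucleotides, Gabra5's 60.7% with 8, Glra2's 51.3% with 6 and Gabrg1's 38.7% with 0, against a median of 54.0% and 4 CpG over all windows. A match to the TCF/LEF letters CTTTGAT, held by 1.80% of all windows, was in none of these 4. The window of Gabra4 overlaps exons of Gabrb1, which is read in the opposite direction, and is not printed. A match is a description of letters and not of a bound site.

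Many of the receptor genes lie in clusters (GRCm38 coordinates). On chromosome 5, Gabrg1 (70751047 to 70842617), Gabra2 (70957597 to 71095849) and Gabra4 (71569749 to 71658308) follow each other on the minus strand, and Gabrb1 (71658113 to 72149037) starts head to head with Gabra4, their transcribed regions overlapping by 196 bases. Gabrg1, Gabra2 and Gabrb1 had their highest means in MGv, at 81.2, 280 and 82.6 CPM, while Gabra4 was highest in VPM and lowest in MGv. Gabrb1 was called only between VPM and MGv, and Gabra2 was called in no comparison with all libraries. Whether the neighbours in any of the clusters depart from each other was not tested. On chromosome 7, Gabrg3 and Gabra5 lie 20.5 kb apart on the same strand, and Gabra5 differed between nuclei while Gabrg3 passed the test in none. On the X chromosome, Gabre, Gabra3 and Gabrq lie within gaps of 158 and 168 kb. Gabrq was called and Gabra3 was not with all libraries, and Gabre was under the count filter and not tested. Gabra6 and Gabrb2 lie 98.7 kb apart on chromosome 11, and Gabrr2 and Gabrr1 36.7 kb apart on chromosome 4.

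Among the alpha subunits, which shape GABA affinity and drug binding, Gabra4 had the most graded pattern. Its level was 24.9, 38.8, 30.3 and 20.8 CPM in dLG, 44.7, 52.2, 53.7 and 42.6 CPM in VPM, and 9.24, 17.0 and 18.8 CPM in MGv. The 3 nuclei did not overlap: every VPM library was above every dLG library, and every dLG library was above every MGv library. VPM was 3.23-fold above MGv (log2 difference 1.69 ± 0.26 SE, adjusted p = 0.000741). dLG was 1.92-fold above MGv (0.94 ± 0.26, adjusted p = 0.0269) and 1.68-fold below VPM (dLG minus VPM -0.75 ± 0.23, adjusted p = 0.0623). The gap between VPM and MGv was called under all 23 alternatives. The call between dLG and VPM was lost when dLG replicate 1, 3 or 4 or VPM replicate 1 or 2 was left out, with adjusted p between 0.00462 and 0.175 over its alternatives. It was also lost when libraries were scaled by total counts alone. The call between dLG and MGv was lost without MGv replicate 1 (log2 difference 0.68) and without the 3 libraries low in Hspa8 (0.49), with adjusted p between 0.000406 and 0.119 over its alternatives.

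Gabra5, whose alpha5 subunit forms mainly extrasynaptic receptors, was high in MGv. It stood at 72.9, 71.5, 68.6 and 65.6 CPM in dLG, at 100.4, 83.2, 67.9 and 78.3 CPM in VPM, and at 157, 139 and 118 CPM in MGv. All MGv libraries were above all others, and the dLG and VPM libraries overlapped. MGv was 1.98-fold above dLG (dLG minus MGv -0.98 ± 0.15, adjusted p = 0.000601) and 1.67-fold above VPM (VPM minus MGv -0.74 ± 0.15, adjusted p = 0.00493), and both calls held under all 23 alternatives. The dLG and VPM means of 69.6 ± 3.21 (SD, n = 4) and 82.5 ± 13.6 CPM (SD, n = 4) differed by less than the test could call (adjusted p = 0.36).

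Gabra2 and Gabra3, the other alpha subunits expressed in immature forebrain, were not called in any comparison by this fit of all libraries. Gabra2 was at 208, 247, 212 and 192 CPM in dLG, at 258, 281, 137 and 238 CPM in VPM, and at 276, 291 and 272 CPM in MGv. VPM replicate 3, at 137 CPM, was below every other library, and all MGv libraries were above all dLG libraries (dLG minus MGv -0.38 ± 0.19, adjusted p = 0.255). Without VPM replicate 3 this difference of -0.38 was called. It was also called without the 3 libraries low in Hspa8, at -0.48, and its adjusted p ranged from 0.0164 to 0.409 over the alternatives. Gabra3 averaged 41.9 ± 6.74 CPM in dLG, 43.6 ± 2.71 in VPM and 51.9 ± 6.23 in MGv (SD, n = 4, 4 and 3), and its log2 differences lay between -0.31 and -0.06. Without dLG replicate 2, the highest dLG library at 52.0 CPM, its difference between dLG and MGv was called at -0.43 (adjusted p between 0.0679 and 0.514 over the alternatives).

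Levels divided by exon length gave the make-up of the alpha transcripts in the list. Gabra2 and Gabra5 together made up most of the summed level in every nucleus. The Gabra2 share averaged 42.0 ± 0.557% in dLG, 38.4 ± 6.03% in VPM and 37.2 ± 2.54% in MGv (SD, n = 4, 4 and 3). The Gabra5 share averaged 35.1 ± 2.49%, 36.2 ± 2.7% and 46.8 ± 3.51%, in the same order, and was at least 43.2% in each MGv library and at most 39.0% in any other. Gabra4 made up 6.97 ± 1.25% in dLG, 10.6 ± 2.73% in VPM and 2.54 ± 0.991% in MGv, and Gabra3 between 13.4% and 15.9% on average. These shares are of transcripts per exon length and not of receptors.

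**Figure D3:**
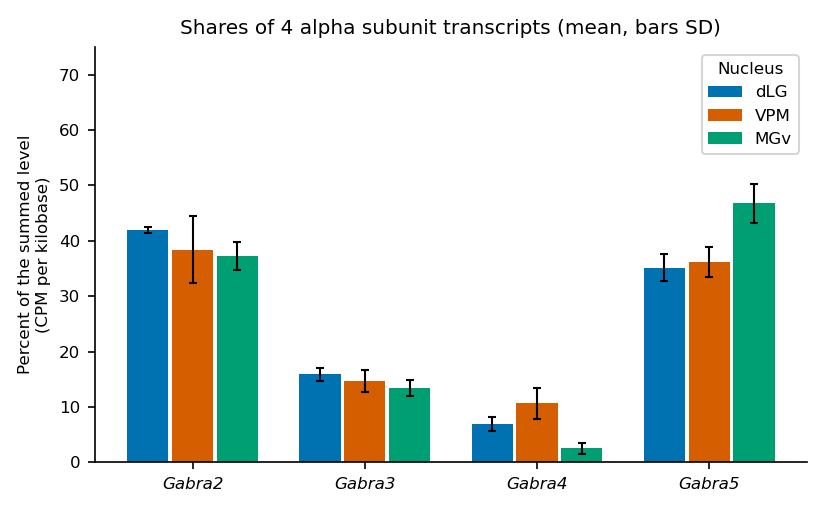
Share of each alpha subunit transcript in the summed level of Gabra2, Gabra3, Gabra4 and Gabra5 (percent, CPM per kilobase of exon), as the mean of the libraries of each nucleus with the SD as bars. Gabra5 averages 46.8% in MGv against 35.1% in dLG and 36.2% in VPM, and Gabra4 averages 2.54% in MGv against 10.6% in VPM.

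The beta subunits, which are needed for receptor assembly, were both called once. Gabrb1 was at 70.4, 81.4, 64.9 and 68.6 CPM in dLG, at 70.8, 62.0, 42.0 and 54.0 CPM in VPM, and at 71.5, 82.3 and 93.9 CPM in MGv. Every MGv library was above every VPM library, the closest pair being 71.5 and 70.8 CPM, and MGv was 1.44-fold above VPM (VPM minus MGv -0.53 ± 0.17, adjusted p = 0.0611). This call was lost when VPM replicate 4 or MGv replicate 2 or 3 was left out, and its adjusted p ranged from 0.0345 to 0.229 over the alternatives. It was also lost with the replicate number as a block and with a fit of the compared nuclei only. Gabrb2 was at 5.60, 2.49, 3.11 and 4.72 CPM in dLG, at 5.19, 5.02, 4.03 and 3.38 CPM in VPM, and at 6.01, 5.44 and 12.3 CPM in MGv. The dLG and MGv libraries overlapped, and MGv replicate 3 was higher than the other 10. MGv was 1.99-fold above dLG (dLG minus MGv -0.99 ± 0.36, adjusted p = 0.0932). That call was lost under 12 of 23 alternatives, including the removal of dLG replicate 2, 3 or 4, VPM replicate 1 or 2, or MGv replicate 3, and its adjusted p ranged from 0.0444 to 0.453. Without MGv replicate 3 the difference was -0.53.

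Gabrg1 had the largest difference between dLG and MGv among the members called there. It encodes the gamma1 subunit, a less common partner than other gamma subunits in the mature brain. It was at 16.6, 43.2, 14.7 and 9.54 CPM in dLG, at 32.4, 40.4, 33.2 and 30.2 CPM in VPM, and at 93.3, 79.7 and 70.5 CPM in MGv. All MGv libraries were above all others, and dLG replicate 2 was above the VPM libraries while the other dLG libraries were below them. MGv was 3.85-fold above dLG (dLG minus MGv -1.94 ± 0.37, adjusted p = 0.00317), a call held under all 23 alternatives, and 2.38-fold above VPM (VPM minus MGv -1.25 ± 0.36, adjusted p = 0.0367). The latter was lost only without MGv replicate 1, at -1.13, with adjusted p of at most 0.118 over its 23 alternatives. The difference between dLG and VPM was -0.69 ± 0.34 and was not called (adjusted p = 0.28). It was called without dLG replicate 2, at -1.34, and also with all libraries when no count filter was used, at -0.69, or when a term for the 3 libraries low in Hspa8 was added, at -0.87, and its adjusted p ranged from 0.00104 to 0.531 over the alternatives.

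Some marker genes moved with Gabrg1 and others did not. In dLG replicate 2 the relay neuron factors Gbx2 and Tcf7l2 were at 51.6 and 696 CPM, against 14.2 to 29.4 and 382 to 406 CPM in the other dLG libraries and 272 to 333 and 1072 to 1286 CPM in MGv. Rora, Lhx9, Slc17a6 and Lef1, the other genes of the relay list, were called in the opposite direction, higher in dLG than in MGv. They averaged 1283, 542, 537 and 356 CPM in dLG and 539, 181, 338 and 189 CPM in MGv. The glial glutamate transporter gene Slc1a3 was at 17.9 CPM in dLG replicate 2, at 1.10 to 4.63 CPM in the other dLG libraries, at 3.23 to 10.3 CPM in VPM and at 45.5 to 90.3 CPM in MGv. The astrocyte list, of which 6 of 7 genes passed the filter, summed to between 57.0 and 139.6 CPM in dLG, 86.8 and 151 CPM in VPM and 76.2 and 192 CPM in MGv. Other genes of this list had other orders. Aldoc was highest in VPM, at 27.9 to 46.6 CPM against 16.6 to 19.5 CPM in MGv and 2.10 to 11.8 CPM in dLG, and Fabp7 averaged 65.5, 64.5 and 35.3 CPM in dLG, VPM and MGv. Of its defining genes, Aqp4 was at most 1.58 CPM, and was called lower in VPM than in MGv (adjusted p = 0.0686), and Gfap was at most 0.0865 CPM in any library. The oligodendrocyte lineage list, of which 3 of 6 genes passed, summed to 12.5 to 30.2, 32.7 to 43.4 and 74.9 to 85.9 CPM in dLG, VPM and MGv, mostly from Mbp, while Sox10 was at most 0.0476 CPM. The part of these in the Gabrg1 and Gabra5 values was not tested.

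Gabrg3, the gene for the gamma3 subunit, did not pass in any comparison. Its means were 24.2 ± 4.34 CPM in dLG, 20.7 ± 4.24 in VPM and 23.0 ± 4.12 in MGv (SD, n = 4, 4 and 3), and its log2 differences were 0.23 ± 0.19, 0.08 ± 0.21 and -0.15 ± 0.21 for dLG minus VPM, dLG minus MGv and VPM minus MGv. Because Gabrg1 varied and Gabrg3 varied little, the share of Gabrg1 in their summed level per exon length averaged 52.6 ± 16.0% in dLG, 71.4 ± 5.58% in VPM and 84.0 ± 4.17% in MGv (SD). dLG spanned 36.0 to 73.8% and overlapped VPM, and each MGv library was at 79.4% or more, above every other library.

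Gabrq, on the X chromosome, encodes the theta subunit, which is found mostly in hypothalamus and brainstem. It was the member called with the largest log2 difference, at a low level. Its level was 1.89, 1.80, 4.14 and 4.06 CPM in dLG, 1.02, 1.21, 0.186 and 0.428 CPM in VPM, and 2.7, 2.63 and 1.75 CPM in MGv. All VPM libraries were below all others, and the dLG libraries fell into a lower and a higher pair. dLG was 4.08-fold above VPM (log2 difference 2.03 ± 0.52, adjusted p = 0.0293), a call held under each of the 22 alternatives that gave a value. MGv was 3.25-fold above VPM (VPM minus MGv -1.70 ± 0.55, adjusted p = 0.0597). This second call was lost with the replicate number as a block, and without VPM replicate 4, MGv replicate 1 or MGv replicate 2. Without the 3 libraries low in Hspa8 it was lost too, at a difference of -1.31. The adjusted p of this second call ranged from 0.0167 to 0.15 over the alternatives.

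The rho subunits form channels with slow responses, known best from the retina. Gabrr1 was the only rho gene to pass the filter and averaged 0.521 ± 0.240 CPM in dLG, 0.340 ± 0.262 in VPM and 0.931 ± 0.823 in MGv (SD, n = 4, 4 and 3). It was called in no comparison, its largest log2 difference being -1.49 ± 0.81 for VPM minus MGv (adjusted p = 0.256), and MGv replicate 1 (1.88 CPM) was well above the other 10 libraries.

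**Figure D4:**
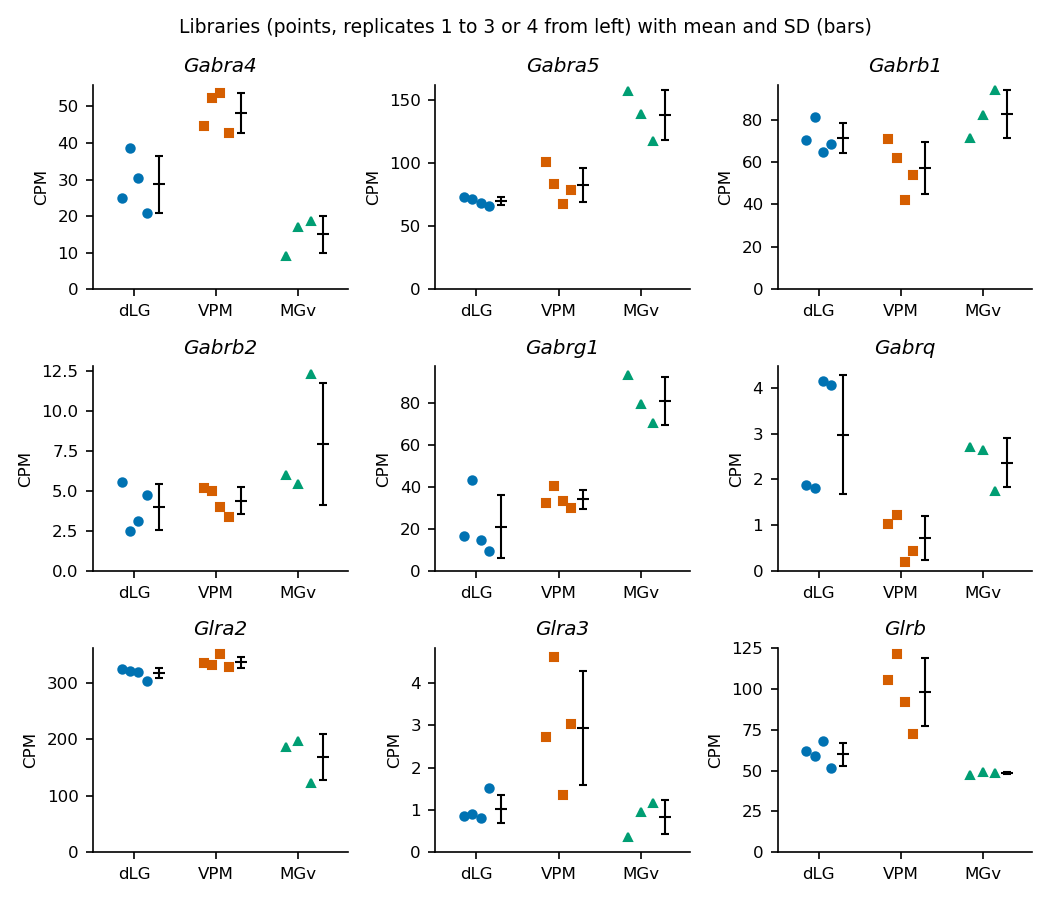
Level in each library of the 9 genes called in at least 1 comparison (CPM, axes from 0), with the mean and SD of each nucleus as bars; points run from replicate 1 on the left. The 3 nuclei do not overlap for Gabra4, Glra2 and Glrb, MGv lies above the others for Gabra5 and Gabrg1, and VPM lies below the others for Gabrq.

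Neither GABA-B subunit gene was called in the fit of all libraries that passed the count filter, and both were abundant. Gabbr1, which binds GABA, averaged 177 ± 17.7 CPM in dLG, 168 ± 20.7 in VPM and 166 ± 18.6 in MGv (SD, n = 4, 4 and 3). Its log2 differences were 0.08 ± 0.13, 0.10 ± 0.14 and 0.02 ± 0.14 (adjusted p = 0.805, 0.732 and 0.953), and its largest, 0.10, was smaller than that of any other member tested. Gabbr2, which couples the receptor to G proteins, was at 65.9, 70.4, 57.8 and 61.2 CPM in dLG, at 127, 103, 51.9 and 88.9 CPM in VPM, and at 53.6, 68.1 and 84.1 CPM in MGv. VPM replicate 3 was the lowest of all 11 libraries and the other VPM libraries were the highest. The difference of dLG minus VPM was -0.54 ± 0.22 (adjusted p = 0.184). Without VPM replicate 3, VPM exceeded dLG by 0.73 on the log2 scale and MGv by 0.63, and both were called. With no count filter the difference between dLG and VPM was called with all libraries, at -0.54. The adjusted p ranged from 0.00641 to 0.43 for the first and from 0.028 to 0.55 for the second over the alternatives.

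Glra2, the glycine receptor alpha subunit of the immature brain, was the most abundant member in every nucleus, at 100.7 ± 2.89 CPM per kilobase in dLG, 107 ± 3.22 in VPM and 53.5 ± 12.8 in MGv (SD, n = 4, 4 and 3). In CPM it was at 324, 321, 319.6 and 304 in dLG, at 335, 331, 351 and 329 in VPM, and at 186, 197 and 122 in MGv. MGv was far below the other nuclei, and VPM lay just above dLG with no overlap. VPM was 2.0-fold above MGv (log2 difference 1.00 ± 0.15, adjusted p = 0.000674) and dLG 1.88-fold above MGv (0.91 ± 0.15, adjusted p = 0.00121). Both calls held under all 23 alternatives. The step between dLG and VPM, though without overlap, was small and not called (-0.08 ± 0.14, adjusted p = 0.81).

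The other alpha subunits were rare, and Glra2 made up 99.4% to 99.8% of the summed level per exon length of Glra1, Glra2 and Glra3 on average in each nucleus. Glra3 was at 0.852, 0.902, 0.817 and 1.53 CPM in dLG, at 2.73, 4.63, 1.36 and 3.04 CPM in VPM, and at 0.376, 0.965 and 1.17 CPM in MGv. All VPM libraries were above all MGv libraries, and VPM replicate 3 was within the range of dLG. VPM was 3.56-fold above MGv (log2 difference 1.83 ± 0.53, adjusted p = 0.0369) and 2.86-fold above dLG (dLG minus VPM -1.52 ± 0.46, adjusted p = 0.0617). The call against MGv was lost without VPM replicate 2 (1.52) or MGv replicate 1 (1.48), with adjusted p between 0.00708 and 0.129. The call against dLG was lost without dLG replicate 1, 2 or 3 or VPM replicate 1, 2 or 4, with adjusted p between 0.0138 and 0.231. It was also lost with the replicate number as a block.

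Glra1, the subunit that dominates in adult spinal cord, was at 0.852, 0.0430, 0 and 0 CPM in dLG, at 0.742, 0.692, 0.372 and 1.47 CPM in VPM, and at 0.601, 0.0878 and 0.292 CPM in MGv. Most of its dLG counts came from dLG replicate 1. It was not called by edgeR (dLG minus VPM -1.94 ± 1.05, adjusted p = 0.333). It was called lower in dLG than in VPM by limma-voom with all libraries, and lower than in VPM and than in MGv by edgeR without dLG replicate 1, with adjusted p between 0.0153 and 0.533 and between 0.0654 and 0.968 over the alternatives. With the remaining dLG libraries at or under the limit of 3 counts, no fold is given.

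Glrb, the beta subunit that carries the gephyrin binding site, followed the order of Gabra4. It was at 61.8, 58.9, 68.2 and 51.3 CPM in dLG, at 106, 121, 91.7 and 72.6 CPM in VPM, and at 47.6, 49 and 48.4 CPM in MGv. The nuclei did not overlap, VPM being highest and MGv lowest, and the spread within MGv was small (SD 0.712 CPM, n = 3). VPM was 2.02-fold above MGv (log2 difference 1.02 ± 0.17, adjusted p = 0.00154) and 1.63-fold above dLG (dLG minus VPM -0.70 ± 0.16, adjusted p = 0.0125), and both calls held under all 23 alternatives. The dLG and MGv levels, though apart in every library, were not called (0.31 ± 0.17, adjusted p = 0.285).

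Gphn, whose protein gathers glycine and GABA-A receptors at inhibitory synapses, varied little among the libraries of a nucleus. It was at 131, 126, 123 and 118 CPM in dLG, at 149, 155, 140.2 and 142 CPM in VPM, and at 142, 139 and 134 CPM in MGv. Every dLG library was below all VPM and MGv libraries, but the differences were small and not called (dLG minus VPM -0.24 ± 0.10, adjusted p = 0.2, and dLG minus MGv -0.15 ± 0.11, adjusted p = 0.459).

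Glra2 and Glrb were each lower in MGv than in VPM by about the same log2 difference, and Gphn was not (0.09 ± 0.11, adjusted p = 0.655). The dissociation response list also set VPM apart. The 9 genes of the dissociation response summed to 214 to 291 CPM in VPM, 387 to 560 CPM in dLG and 497 to 619 CPM in MGv. The 5 cortical neuron markers summed to 1.47 to 2.04 CPM in VPM, to at most 0.387 CPM in dLG and to 0.965 to 5.44 CPM in MGv. They set dLG apart, while VPM lay within the range of MGv. The part of both lists in the values of Gabra4, Glra3 and Glrb was not tested.

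None of the 3 chloride transporter genes was called between nuclei by edgeR's quasi-likelihood test. Slc12a5, the chloride exporter, was at 134, 133, 112 and 134 CPM in dLG, at 143, 126, 77.5 and 125 CPM in VPM, and at 159, 151 and 139 CPM in MGv. All MGv libraries were above all dLG libraries, and VPM replicate 3 was the lowest of all. The log2 differences were 0.12 ± 0.16 for dLG minus VPM, -0.22 ± 0.18 for dLG minus MGv and -0.35 ± 0.18 for VPM minus MGv (adjusted p = 0.759, 0.491 and 0.223). Slc12a2, the chloride importer, was at 8.95, 9.50, 9.43 and 8.30 CPM in dLG, at 8.76, 9.26, 7.57 and 8.56 CPM in VPM, and at 6.39, 7.02 and 9.72 CPM in MGv. The nuclei overlapped, and the adjusted p was at least 0.562 in each comparison. Slc12a7, which encodes the potassium-chloride cotransporter KCC4, averaged 1.05 ± 0.477 CPM in dLG, 1.16 ± 0.378 in VPM and 0.797 ± 0.389 in MGv (SD, n = 4, 4 and 3).

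At P0 the exporter transcript exceeded the importer transcript in every library. Per exon length, Slc12a5 was 17.5 to 23.6 times Slc12a2 in dLG, 15 to 24 times in VPM and 21 to 36.6 times in MGv. The mean log2 ratio was 4.38 ± 0.18 in dLG, 4.31 ± 0.29 in VPM and 4.85 ± 0.42 in MGv (SD, n = 4, 4 and 3). An exact permutation test over all 11550 assignments of the libraries to the 3 nuclei gave p = 0.0907, which misses the threshold of 0.05 used for it. With assignments restricted to libraries of the same replicate number, the exact permutation p was 0.0231. Pairwise, the ratio of dLG minus VPM was 0.07, of dLG minus MGv -0.48 and of VPM minus MGv -0.55 on the log2 scale (exact permutation p = 0.686, 0.171 and 0.171, and 0.686, 0.257 and 0.257 adjusted over the 3 pairs). The smallest p these pairwise tests allow is 0.0286 for dLG against VPM and 0.0571 for the others. Without MGv replicate 3 the largest difference was 0.78 and the exact permutation p over the 3 nuclei was 0.0159; without the 3 libraries low in Hspa8 it was 0.30 and p = 0.521. The ratio is of transcripts and says nothing of the chloride gradient itself.

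**Figure D5:**
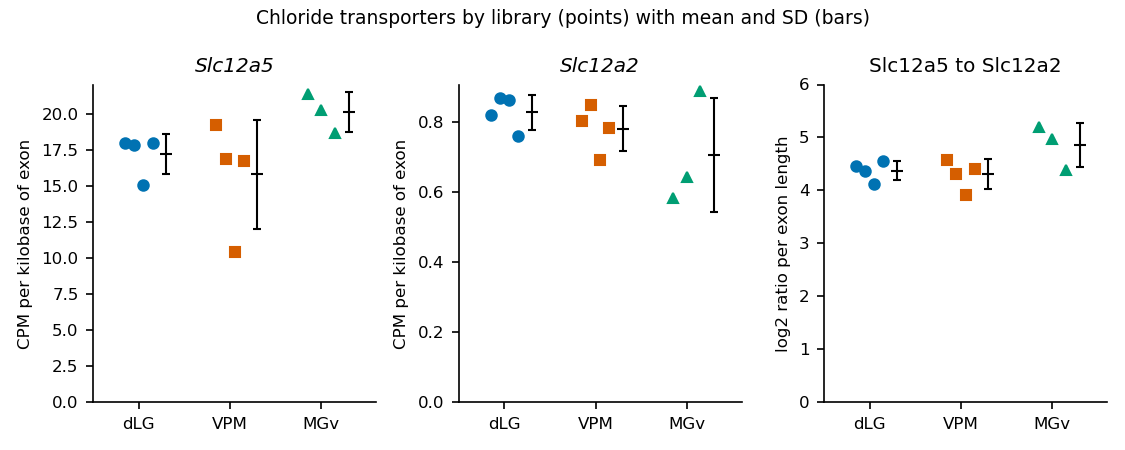
Levels of Slc12a5 and Slc12a2 (CPM per kilobase of exon, axes from 0) and their log2 ratio in each library, with the mean and SD of each nucleus as bars. The ratio lies between 3.91 and 5.19 in all 11 libraries, and the 3 nuclei overlap.

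Genes that act with these receptors were taken as 4 lists chosen by function. Of 17 genes for the inhibitory postsynaptic scaffold and receptor traffic, all were tested, and the calls numbered 2 for dLG and VPM, 3 for dLG and MGv and 4 for VPM and MGv, where 10.7%, 16.1% and 19.0% of all genes tested were called. Iqsec3, which binds gephyrin at inhibitory synapses, was at 30.7, 20.6, 33.5 and 34.1 CPM in dLG, at 14.8, 12.1, 9.12 and 14.8 CPM in VPM, and at 34.3, 43.4 and 48.7 CPM in MGv. The nuclei did not overlap, with VPM lowest (dLG minus VPM 1.22 ± 0.21, adjusted p = 0.00238, and VPM minus MGv -1.73 ± 0.22, adjusted p = 0.000173). Hap1, a partner in the recycling of GABA-A receptors to the membrane, averaged 81.8 ± 36.1 CPM in dLG, 49.3 ± 10.9 in VPM and 178 ± 46.7 in MGv (dLG minus MGv -1.12 ± 0.29, adjusted p = 0.0208, and VPM minus MGv -1.85 ± 0.29, adjusted p = 0.000906). Lhfpl4, which links GABA-A receptors to neuroligin, was higher in MGv than in both other nuclei, at 158 ± 26.1 CPM against 110.3 ± 15.4 in dLG and 102 ± 11.8 in VPM (adjusted p = 0.047 and 0.0182).

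The auxiliary subunits of GABA-B receptors, of which 3 of 4 were tested, differed between nuclei where Gabbr1 did not pass the test, with 1 called in each comparison (10.7%, 16.1% and 19.0% of all genes). Kctd12 was at 126, 95.7, 109 and 112 CPM in dLG, at 67.5, 60.9, 28.7 and 62.1 CPM in VPM, and at 95.9, 81.0 and 72.4 CPM in MGv, with dLG above VPM in every library (log2 difference 1.01 ± 0.22, adjusted p = 0.0107). Kctd8 averaged 23.0 ± 2.77 CPM in dLG, 17.6 ± 1.49 in VPM and 35.6 ± 7.88 in MGv, and was higher in MGv than in dLG (adjusted p = 0.0333) and than in VPM (adjusted p = 0.00205). Whether these differences depart from those of Gabbr1 was not tested.

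Of 11 genes for the synthesis, storage, uptake and breakdown of GABA and glycine, 8 were tested. Slc6a11, a GABA transporter, was lower in VPM than in MGv (VPM minus MGv -1.07 ± 0.27, adjusted p = 0.0204). Abat, the enzyme that breaks down GABA, averaged 93.1 ± 18.4 CPM in dLG, 66.0 ± 11.4 in VPM and 45.0 ± 10.9 in MGv and was higher in dLG than in MGv (1.05 ± 0.21, adjusted p = 0.00487). The GABA-synthesising enzyme genes Gad1 and Gad2 were at most 2.72 and 1.43 CPM in any library.

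Of 13 other cation-chloride cotransporter, kinase and chloride channel genes, 10 were tested, and 1, 2 and 1 were called for dLG and VPM, dLG and MGv, and VPM and MGv (10.7%, 16.1% and 19.0% of all genes). Slc12a8, a member of the same transporter family, was lower in dLG (3.19 ± 1.04 CPM) than in VPM (7.47 ± 3.38 CPM, adjusted p = 0.0427) and MGv (7.72 ± 0.670 CPM, adjusted p = 0.0361). Stk39, whose kinase SPAK phosphorylates the transporters encoded by Slc12a2 and Slc12a5, averaged 16.3 ± 2.28 CPM in dLG, 15.1 ± 5.27 in VPM and 9.21 ± 2.3 in MGv, and was lower in MGv than in dLG (adjusted p = 0.063) and than in VPM (adjusted p = 0.0953). Wnk1, a kinase upstream of SPAK, averaged 29.8 ± 6.37, 24 ± 2.90 and 33.1 ± 8.19 CPM in dLG, VPM and MGv and was not called (smallest adjusted p = 0.162).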

How the data were processed

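RNA-seq was performed by the authors on sorted P0 thalamic neurons (SMARTer amplification, which does not mark strand, and single reads of 50 bases). Per the study's methods and the submitters' processing notes, reads were checked with FastQC 0.11.7, trimmed with Trim Galore 0.6.1 and cutadapt 2.3, aligned to GRCm38 with STAR 2.7.0d and counted per Ensembl gene with featureCounts (Subread 1.6.4). The deposited values are raw counts per gene, not normalised or filtered. How the counting treated strand and multiply aligned reads is not given in the sources used here, so opposite-strand overlaps may share reads. These cover 4.98% of the exonic bases of Gabra5, 5.84% of Glra1, 3.92% of Gphn, 6.53% of Gabrr3 and 0.756% of Gabra4.

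Symbols, positions and exon lengths came from GENCODE M21 (54723 identifiers matched). Genes were kept by filterByExpr (15907), scaled by TMM and fitted in edgeR 4.0.16 (R 4.3.3) with 1 mean per nucleus over all 11 libraries, and p-values were adjusted over all genes by the Benjamini-Hochberg method, with a threshold of 0.1 as in the study. The standard error is the log2 difference divided by the square root of F. The common biological coefficient of variation was 28.2%. CPM are counts divided by the TMM-scaled library total. The Slc12a5 to Slc12a2 ratio was compared by exact permutation tests with a threshold of 0.05. Promoter windows came from RefSeq, with entries for 24 of the 27 genes. No 2 libraries of a nucleus were copies (chi-square per degree of freedom 12.8 to 115 over 15 pairs).

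The members and the lists were chosen with earlier results of these data known. All 27 members are accounted for, members with any call are given with every library, and partner genes are named for the 3 smallest adjusted p-values of each list, except 1 that is not reported here.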

Additional observations from a re-analysis of the deposited data

Results flagged for a closer look

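Of 42 sets of 4 values (the dLG or the VPM libraries of a member), 5 had 1 library far from the other 3 by Dixon's test at the 95% level, where chance alone flags about 1 in 20, or 2.1 sets. The sets do not cover all 27 members in both nuclei, and Gabrp in VPM, counted only in replicate 4, was not among those flagged. All flagged sets were in dLG. Gabra3 was at 52.0 CPM in dLG replicate 2 and at 38.0 to 39.1 CPM in the others. Glra1 was at 0.852 CPM in dLG replicate 1 and at 0 to 0.0430 CPM in the others. Glra3 was at 1.53 CPM in dLG replicate 4 and at 0.817 to 0.902 CPM in the others. The other flagged sets held a low value in dLG replicate 3, the library with blood transcripts: Gabrr1 at 0.163 CPM against 0.609 to 0.668 CPM, and Slc12a5 at 112 CPM against 133 to 134 CPM. The part of the blood transcripts in these was not tested.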

How the results depend on the processing

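Over the alternatives, the 17 called member differences were recomputed 387 times, of which 343 kept the call, 44 lost it and 0 changed sign, and 20 calls were gained among the 43 uncalled differences. The number of members called between dLG and VPM was 4. It was 7 with no count filter, 2 with at least 10 counts required in every library, 2 at an adjusted p under 0.05, 8 without the 3 libraries low in Hspa8, and 2 to 5 when 1 library was left out. The calls over all genes in this comparison moved too, from 1704 of 15907 to 2082 of 33170 with no filter, 1445 of 12035 at 10 counts, 2618 of 16234 without the 3 libraries, and 1093 to 2223 when 1 library was left out. Leaving out 1 library gave 4 to 6 members between dLG and MGv (5 with all) and 5 to 9 between VPM and MGv (8 with all). Calls over all genes then ran from 1886 to 3300 and from 2024 to 3235, of 15627 to 16566 tested. Other settings, among them DESeq2, limma-voom and thinned counts, gave 2 to 8, 4 to 5 and 6 to 9 members in the 3 comparisons. Over all genes they gave 1445 to 2618, 1940 to 3295 and 2445 to 3965 calls, of 12035 to 33170 tested. Calls over all genes at an adjusted p under 0.05 were not counted.

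With the replicate number as a block, 3, 4 and 6 members were called for dLG and VPM, dLG and MGv, and VPM and MGv. The calls over all 15907 genes were then 1464, 2169 and 2695, against 1704, 2562 and 3016 without the block. The largest difference of the Slc12a5 to Slc12a2 log2 ratio, between VPM and MGv, was 0.55 with and without the block, with an exact permutation p of 0.0231 when assignments were restricted to libraries of the same number. Leaving out 1 library moved that difference between 0.38 and 0.78. The labels do not say whether libraries of the same number come from the same brains. Over 10 same-numbered pairs of libraries from different nuclei the deviations correlated at 0.016 on average, with a range of -0.203 to 0.483. The 30 other pairs averaged -0.0050, and 4 of 11 libraries correlated best with a library of their own number. These correlations cannot settle whether the numbers pair the libraries. The cause of these changes was not tested. MGv has 3 libraries and the lowest depth, which limits what could be called for members near 1 CPM.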
